A study of Rattus norvegicus with 8 samples.

Results

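The clones of libraries UI-R-E0 and UI-R-E1 are 2147 of the 8778 rat cDNA clones printed on a 2-colour array. They were chosen by name alone, as every clone whose identifier starts with UI-R-E0- or UI-R-E1-. E0 contributed 357 clones on 714 spots and E1 contributed 1790 clones on 3594 spots. The remaining 6631 clones, which also carry the prefix UI-R-, are called the other clones here. Of the E0 and E1 clones, 2140 were printed 2 times and 7 were printed 4 times on each array. The files give clone identifiers and no gene names, and 0 of the 2147 match a rat gene symbol or synonym among 47357 genes of the reference table, so clones are described by library, plate and position.

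UI-R- is the prefix of a rat expressed sequence tag programme of the University of Iowa, in which single clones of cDNA libraries were sequenced from their ends. Libraries of such programmes are often normalised, which evens out the abundance of their clones, or subtracted, which removes clones already sequenced. On a spotted array each clone is a probe, and the spot takes up labelled cDNA in proportion to how much of the matching transcript the hybridised RNA holds, on top of unspecific signal. The sources used here do not give the tissue or the treatment of E0 and E1.

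The study hybridised a single rat RNA, the Brain-Heart-Liver Control Mix, to both channels of 8 arrays to measure effects of the dyes. No animal, strain, age or treatment is given for the mix. On the 4 arrays called test_in_Cy5 the portion named test carried Cy5 and the portion named ref carried Cy3, and on the 4 arrays called test_in_Cy3 the dyes were swapped. The labels number the arrays of each set 1 to 4 and describe them as technical replicates, so all p-values below measure technical spread between arrays and say nothing of the spread between animals. The clones are a fixed set, and the number of arrays limits the precision of each value.

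Some arrays stood apart. Test_in_Cy3 replicate 3 was bright, with a median Cy5 intensity over E0 clones of 730818 against 216097 to 298464 on the other 7 arrays, and over E1 clones of 661393 against 167512 to 234841. Its blanks, the 56 spots printed without a clone, were bright as well, at a Cy5 median of 447122 against 109209 to 134132. A deposited flag of unstated meaning was 0 for 24.1% of its E0 spots and 22.7% of its E1 spots, and for at most 2.23% of the spots of either library elsewhere. On both arrays numbered 4, 5 of the 5 sets of control spots whose ratio of test over ref was more than 1 in size on the log2 scale at numbers 1 to 3 had the opposite sign. Results that changed without test_in_Cy3 replicate 3 or without the arrays numbered 4 are given both ways.

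The libraries also differed in where they lay. Each of the 48 print blocks held clones of both, with 10 to 20 spots of E0 and 72 to 78 of E1, but inside the blocks the libraries occupied different rows of the 19. E1 filled rows 6 and 7 with 960 spots each and held 510 spots of row 5, 822 of row 8, 96 of row 17 and 226 of row 18. E0 held 192 spots of row 13, 232 of row 18 and 284 of row 19. Only row 18 had more than 100 spots of each, and comparisons inside single rows are given beside the overall ones.

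Over the whole array, E0 clones were brighter than E1 clones in both channels on all 8 arrays, and this order turned when each library was set against other clones of its own rows. Brightness is the median over a library's clones of the log2 intensity minus the median log2 intensity of the blanks, without background subtraction. In Cy5 the brightness of E0 was 1.15, 1.20, 0.82 and 0.90 on test_in_Cy5 replicates 1 to 4 and 1.27, 1.27, 0.71 and 0.77 on test_in_Cy3 replicates 1 to 4. E1 gave 0.81, 0.80, 0.53 and 0.52 on the first 4 and 0.83, 0.83, 0.56 and 0.40 on the second 4. Arrays numbered 1 and 2 were the higher ones in both libraries, and although the 2 ranges overlapped across arrays, E0 was above E1 on each array. The mean was 1.01 ± 0.24 for E0 and 0.66 ± 0.17 for E1 (SD, n = 8 arrays), a difference of 0.35 ± 0.095 on the log2 scale that ran from 0.14 on test_in_Cy3 replicate 3 to 0.43. An exact two-sided sign-flip test over the 8 arrays gave p = 0.0078, the smallest value that 8 arrays allow, and an adjusted p of 0.0107 over the 11 tests of this family. Were the 4 label numbers the unit in place of the 8 arrays, the smallest p of this and every other sign-flip test would be 0.125.

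Cy3 showed the same order at a smaller size. The Cy3 brightness of E0 was 0.42, 0.29, 0.31 and 0.34 on test_in_Cy5 replicates 1 to 4 and 0.41, 0.42, 0.45 and 0.36 on test_in_Cy3 replicates 1 to 4. E1 gave 0.26, 0.15, 0.20 and 0.20 and then 0.24, 0.25, 0.33 and 0.17. The 2 libraries overlapped across arrays through E1 on test_in_Cy3 replicate 3, the bright array. The means were 0.38 ± 0.058 and 0.23 ± 0.056 and differed by 0.15 ± 0.028, with E0 higher on 8 of 8 arrays (exact sign-flip p = 0.0078, adjusted p = 0.0107). The median E1 clone was thus closer to the blanks in Cy3 than the E0 median on every array.

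Of the 2 comparisons that take the rows into account, 1 kept the direction and 1 turned it. Inside row 18, which holds both libraries, the difference was smaller. E0 exceeded E1 there by 0.15 in Cy5 on 8 of 8 arrays (exact sign-flip p = 0.0078) and by 0.071 in Cy3 on 7 of 8 arrays (exact sign-flip p = 0.0234). Row 18 was a bright row for every library, with a Cy5 brightness of 1.15 for its 116 E0 clones, 1.00 for its 113 E1 clones and 1.61 for 251 other clones. Even here the libraries were not evenly placed across the array. Block columns 1 to 4 held 96, 24, 96 and 16 of the E0 spots and 48, 72, 48 and 58 of the E1 spots, and the part of position in the remaining difference was not tested.

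With each spot set against the median other clone of its row, over all rows with at least 100 such spots, E0 lay below E1. The Cy5 level was -0.19 for E0 and 0.00045 for E1, and E0 was lower by 0.19 ± 0.082 on 8 of 8 arrays (exact sign-flip p = 0.0078). The Cy3 levels were -0.088 and 0.0057, and E0 was lower by 0.093 ± 0.028 on 8 of 8 arrays (exact sign-flip p = 0.0078). This comparison leaves out E1 rows 6 and 7, which hold no other clones, and its reference clones differ between the rows of E0 and the rows of E1. Library and row therefore cannot be told apart in the difference between E0 and E1.

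E0 and E1 as one set were brighter than the other clones over the whole array, and inside rows the overall difference turned its sign without passing the test. The 2147 clones had a Cy5 brightness of 0.71 ± 0.18 against 0.54 ± 0.15 for the other clones (SD, n = 8), a difference of 0.17 ± 0.051 on 8 of 8 arrays. In Cy3 the difference was 0.068 ± 0.033, again on 8 of 8 arrays, and both gave an exact sign-flip p of 0.0078 and an adjusted p of 0.0107. With each spot set against the median other clone of the same row, the differences turned to -0.041 in Cy5 and -0.010 in Cy3, each above 0 on 2 of 8 arrays (exact sign-flip p = 0.0781 and 0.359). The sign also differed from row to row.

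The rows that E0 or E1 shared with other clones show how far position and library can be separated. In row 5, E1 had a Cy5 brightness of 0.72 against 0.40 for the other clones, and the difference of 0.32 ± 0.10 was above 0 on 8 of 8 arrays. In row 8 E1 had 0.53 against 0.64, with a difference of -0.11 ± 0.14 that was above 0 on 1 of 8 arrays, and in row 17 it had 0.91 against 1.03, again higher on 1 of 8. E1 was thus above its row neighbours at one place and mostly below them at others. E0 exceeded its neighbours in row 13 by 0.083 ± 0.059 on 8 of 8 arrays, and it lay below them in row 18 by 0.46 ± 0.15 on 8 of 8 arrays. In row 19 E0 had 1.02 against 1.25 and was higher on 1 of 8 arrays. Within E1, Cy5 brightness was 0.72, 0.69, 0.61 and 0.53 in rows 5 to 8. These row values were chosen after the layout was seen and carry no test.

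The share of clones above the blanks separated E0 from E1 as well. A clone counted as above the blanks on an array where its mean intensity in each channel was over that channel's 95th percentile of the 56 blanks. For E0 this share was 31.9%, 40.3%, 34.5% and 39.8% on test_in_Cy5 replicates 1 to 4 and 39.2%, 44.5%, 21.3% and 38.1% on test_in_Cy3 replicates 1 to 4. For E1 it was 18.3%, 27.3%, 20.4% and 22.8%, then 23.5%, 28.2%, 13.9% and 20.9%. Test_in_Cy3 replicate 3 was the lowest array for both. The means were 36.2% ± 7.13 and 21.9% ± 4.65 (SD, n = 8), and the difference of 14.3 ± 3.19 percentage points held on 8 of 8 arrays (exact sign-flip p = 0.0078, adjusted p = 0.0107). Inside row 18 it was 5.34 points on 7 of 8 arrays (exact sign-flip p = 0.0234). The mean shares in that row were 40.5% for E0 and 35.2% for E1, both below the 52.6% of the other clones. Above the highest blank in place of the 95th percentile it shrank to 0.82 points, still on 8 of 8 arrays. Few clones passed that cut, with mean shares of 1.05% for E0 and 0.23% for E1. The share was not set against the other clones of each row, the comparison that turned the order in brightness.

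Against the other clones the share of E0 and E1 together was close to level. It was 24.3% ± 5.01 against 22.8% ± 4.61, a difference of 1.54 ± 1.11 percentage points on 8 of 8 arrays (exact sign-flip p = 0.0078, adjusted p = 0.0107). Above the highest blank the sign turned, to -0.28 points on 8 of 8 arrays, from mean shares of 0.37% and 0.65%.

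On all 8 arrays at once, 68 E0 clones (19.0%) and 170 E1 clones (9.50%) were above the blanks, together 238 (11.1%), against a background of 10.8% of all 8778 clones. At least 4 arrays showed 136 E0 clones (38.1%) and 407 E1 clones (22.7%) above the blanks. No array did so for 185 E0 clones (51.8%) and 1170 E1 clones (65.4%), against 66.3% of the other clones. The larger part of both libraries thus passed this rule on no array. The median clone was still brighter than the blank median in Cy5, by 1.01 in E0 and 0.66 in E1 on the log2 scale. The mean share of clones passing on an array also depended on the reference spots. With the negative control spots in place of the blanks, mean shares were 51.3% for E0, 36.6% for E1 and 34.1% for the other clones. With the blanks they were 36.2%, 21.9% and 22.8%. At the bright end, 30 E0 clones (8.40%) and 93 E1 clones (5.20%) stayed in the brightest 10% of all clones in Cy5 on all 8 arrays, against 6.11% of the other clones. A spot at the scanner ceiling of 5242800 occurred in 3 E0 clones, 1 E1 clone and 18 other clones.

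E0 was also the more spread library. The interquartile range of log2 Cy5 intensity over clones was 1.56 ± 0.30 for E0, 1.04 ± 0.16 for E1 and 1.21 ± 0.17 for the other clones (SD, n = 8). In Cy3 it was 0.86 ± 0.12, 0.48 ± 0.11 and 0.55 ± 0.15. With all 8778 clones cut by mean log2 intensity into 5 bins of equal size, the brightest bin held 117 E0 clones, which is 32.8% of the library, and 320 E1 clones, or 17.9%. The dimmest bin held 10.6% of E0 and 12.6% of E1, against 22.5% of the other clones. E1 was thus concentrated in the middle bins, with 20.8%, 23.9% and 24.8% of its clones in bins 2 to 4, and E0 reached further up.

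Brightness varied between the source plates, read from the part of the identifier after the library name. E1 came from 42 plates with 19 to 61 clones each, and their median Cy5 brightness ran from 0.37 to 1.16 around a median plate of 0.64. The share of a plate's clones above the blanks on all 8 arrays ran from 2.08% to 31.6%. E0 came from 51 plates, of which only 6 had 10 or more clones, 134 clones in all, and their Cy5 brightness ran from 0.44 to 1.00. The E0 plates with fewer than 10 clones ran more widely, from 0.015 to 3.01, so the 6 do not stand for the library. The ranges of the 42 E1 plates and of these 6 E0 plates overlapped, and 1 plate of a library did not stand for the rest.

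Intensity ranks were kept between arrays more closely in E0 than in E1. The Spearman correlation of Cy5 intensity between 2 arrays, averaged over the 28 pairs, was 0.908 over the 357 E0 clones, 0.837 over the 1790 E1 clones and 0.841 over the other clones, ranging over pairs from 0.769 to 0.984 in E0 and from 0.655 to 0.956 in E1. In Cy3 the averages were 0.882, 0.794 and 0.794. These are correlations across clones that share arrays and spot positions, and they are descriptions without a test. Test_in_Cy3 replicate 3 lowered them in every library: without it the Cy5 averages were 0.951, 0.886 and 0.880. In row 18 alone they were 0.928, 0.896 and 0.951, so the other clones were there the most stable.

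Within bins of like brightness the libraries were closer together. From the dimmest to the brightest of the 5 bins the Cy5 correlation was 0.324, 0.116, 0.206, 0.543 and 0.863 in E0, and 0.281, 0.125, 0.174, 0.477 and 0.844 in E1. In the other clones it was 0.256, 0.107, 0.109, 0.443 and 0.872. E0 was above E1 in 4 of the 5 bins, all but the second dimmest. In every set the correlation was highest in the brightest bin, and the dimmest bin was above the second and the third. The standard deviation of a clone's percentile rank in Cy5 over the 8 arrays, as a median over clones, was 2.43 percentile points for E0, 2.41 for E1 and 2.29 for the other clones in the brightest bin, against 6.62, 8.59 and 9.18 over all clones. What brightness contributes to the difference in rank stability between E0 and E1 was not tested.

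Duplicate spots of a clone repeated the ratio slightly better in E0. The log2 ratio of Cy5 over Cy3, the dye ratio, was taken after normexp background correction, which models the signal above local background, and loess, which removes a trend of the ratio with intensity within each array. The standard deviation between the 2 spots of a clone, as a median over clones printed 2 times, was 0.109, 0.106, 0.141 and 0.103 in E0 and 0.145, 0.157, 0.160 and 0.143 in E1 on test_in_Cy5 replicates 1 to 4. On test_in_Cy3 replicates 1 to 4 it was 0.108, 0.092, 0.057 and 0.116 in E0 and 0.128, 0.148, 0.062 and 0.167 in E1. The ratio differed least on the bright array, test_in_Cy3 replicate 3. E0 was lower on 8 of 8 arrays, by 0.035 ± 0.018 in the mean (exact sign-flip p = 0.0078, adjusted p = 0.0107). E0 and E1 together were lower than the other clones by 0.018 ± 0.0098, also on 8 of 8 arrays with the same p. Without background correction both differences were lost, at -0.0013 (exact sign-flip p = 0.258) and 0.00080, and inside row 18 the first was -0.0088 (exact sign-flip p = 0.227).

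For the dye ratio itself, no difference between E0 and E1 passed the test. Its median over E0 clones was 0.003, -0.005, -0.017 and 0.014 on test_in_Cy5 replicates 1 to 4 and 0.030, 0.004, -0.012 and 0.065 on test_in_Cy3 replicates 1 to 4. For E1 it was 0.014, 0.027, 0.036 and 0.007, then 0.019, 0.016, 0.014 and 0.022. E1 was above 0 on every array and E0 on 5 of 8, and the difference of -0.009 ± 0.030 was above 0 on 3 of 8 arrays (exact sign-flip p = 0.414, adjusted p = 0.414). It ran from -0.053 to 0.043 between arrays. Between orientations it differed by -0.026 (exact permutation p = 0.229, adjusted p = 0.251; 0.0286 is the smallest value the 70 splits allow). With the arrays only median-centred, without loess, E0 exceeded E1 by 0.052 and the difference passed the test. Set against the other clones of its own rows, E0 was lower than E1, with a difference of -0.027, on 8 of 8 arrays (exact sign-flip p = 0.0078).

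E0 and E1 together had a dye ratio 0.012 ± 0.013 above that of the other clones, on 7 of 8 arrays (exact sign-flip p = 0.0156, adjusted p = 0.0191). The difference was -0.0017, 0.0028, 0.0062 and 0.0018 on test_in_Cy5 replicates 1 to 4. On test_in_Cy3 replicates 1 to 4 it was 0.017, 0.0076, 0.020 and 0.039, each above every test_in_Cy5 value. Whether it differed between orientations was not tested. Without test_in_Cy3 replicate 4, the array with the largest difference, it was 0.0077. It no longer passed the test without background correction (0.0033), with plain subtraction (0.0040), with loess per print block (0.0083), with the authors' values (0.0040), over clones above the blanks (0.0071), within rows (0.0098) and without the arrays numbered 4 (0.0087).

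The dye effect of a single clone, its mean log2 Cy5/Cy3 over both orientations in a limma fit, was called at an adjusted p under 0.05 over all 8778 clones. It was called for 7 E0 clones (1.96%) and 42 E1 clones (2.35%), together 49 (2.28%), against a background of 2.63%. Both shares lay near the background. Cy5 was higher for 3 of the E0 and 13 of the E1 clones, together 0.745% against a background of 0.456%. Cy3 was higher for 4 and 29 clones, together 1.54% against a background of 2.18%. The background includes the 49 clones themselves, and neither split was tested against it. Among the 950 clones above the blanks on all 8 arrays, fitted alone, 10 of 68 E0 clones (14.7%) and 11 of 170 E1 clones (6.47%) were called, against 8.95% of the 950. Of the 10 E0 clones, 3 had a spot at the scanner ceiling, and this fit was not repeated without saturated clones.

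These counts depended on single arrays. Leaving out test_in_Cy5 replicates 1 to 4 in turn left 4, 3, 4 and 3 E0 calls and 28, 12, 20 and 22 E1 calls. Leaving out test_in_Cy3 replicates 1 to 4 left 2, 3, 4 and 4 E0 calls and 3, 7, 41 and 13 E1 calls, so that test_in_Cy3 replicate 1 moved the E1 count most. The share called over all 8778 clones moved likewise, to 1.72%, 0.684%, 1.28% and 1.34% in the first 4 fits and 0.353%, 0.558%, 2.6% and 0.9% in the second 4. The balance of directions among the calls depended on the scaling, which also changed which clones were called. Cy5 was higher in 27 of 37 E0 and 88 of 153 E1 calls without background correction, in 23 of 34 and 70 of 123 with plain subtraction, and in 77 of 117 and 245 of 491 with median centring. It was higher in 0 of 2 and 0 of 4 calls with loess per print block, and in 15 of 31 and 42 of 81 with the authors' values, whose direction was inferred from their correlation with the scanner ratios. The share called over all clones was 8.61%, 7.44%, 28.9%, 0.399% and 5.09% in these 5 fits, in the same order. An unadjusted p under 0.05 was reached by 540 of the 2147 clones (25.2%), 93 of E0 and 447 of E1, against a background of 24.4%. Among the 2147 clones the adjusted p was 0.0498 for the last one called and 0.0538 for the first one not called, and 136 lay between 0.05 and 0.1.

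Most of the called clones were above the blanks on no array, in E0 and E1 together as over all clones. They were 39 of the 49, against 187 of the 231 called over all 8778 clones and 63.1% of all 2147 clones. The 39 were 14 of the 16 with Cy5 higher and 25 of the 33 with Cy3 higher. The dimmest 2 of the 5 bins held 6 of the 16 and 21 of the 33. Background correction changed the sizes. In E1 the median size was 0.44 for the clones with Cy5 higher and 0.56 for those with Cy3 higher, and 0.098 and 0.12 without the correction. In E0 it went from 0.42 to 0.082 for the 3 clones with Cy5 higher, and from 1.25 to 1.43 for the 4 with Cy3 higher. All 49 kept their sign without background correction, and 40 of them were called again.

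The 6 called clones above the blanks on all 8 arrays all had Cy3 higher. They were 3 of E0 and 3 of E1. The 3 of E0 were the 3 that had a spot at the ceiling, on 5, 4 and 2 of the arrays, with effects of -1.51, -1.68 and -0.90 (limma adjusted p = 0.0029, 0.0024 and 0.0117). The other clones did the same. Their 27 called clones above the blanks on all 8 arrays all had Cy3 higher, and all 18 of their saturated clones were called with Cy3 higher. The part of the ceiling in these effects was not tested. The E1 clone with a saturated spot, at the ceiling on 1 array, had an effect of -0.10 and was not called. With saturated clones left out, 3 E0 and 35 E1 clones were called, against 1.87% of all 8756 clones in that fit.

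Position on the array moved with these calls. Of the 16 clones with Cy5 higher, 11 lay in block column 2 and 0 in block column 4. Of the 33 with Cy3 higher, 21 lay in block column 4 and 1 in block column 2. The 4 block columns held 514, 571, 519 and 543 of the 2147 clones, a near even spread. The other clones did the same, with 21 of 24 Cy5-higher calls in column 2 and 117 of 158 Cy3-higher calls in column 4. Over the 48 blocks the median dye ratio of the E0 and E1 spots ran from -0.22 to 0.22 and that of the other spots from -0.30 to 0.27. The 2 medians correlated at r = 0.953 across blocks (Spearman 0.952), a description over blocks that share arrays and neighbouring positions. With loess fitted in each block, 5 of the 49 calls were left, 2 of E0 and 3 of E1.

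The sizes of the dye effects were alike in E0 and E1. The median absolute effect was 0.096 in E0 and 0.10 in E1, against 0.11 in the other clones, and 107 of the 2147 clones (4.98%) exceeded 0.5, against 9.88% of the other clones. The residual standard deviation of the fit had a median of 0.18 in E0, 0.23 in E1 and 0.26 in the other clones. These orders were not kept without background correction. The median absolute effect was then 0.037 in E0, 0.034 in E1 and 0.032 in the other clones. The residual medians were then 0.070, 0.066 and 0.067. With the correction, the same sign on all 8 arrays was found for 24 E0 clones (6.72%) and 117 E1 clones (6.54%), against a background of 6.35%. Across clones, the mean ratios of the 2 orientations correlated at r = 0.733 in E0, 0.594 in E1 and 0.603 in the other clones (Spearman 0.533, 0.486 and 0.475). Among clones above the blanks on all 8 arrays r was 0.960, 0.810 and 0.917. The 68 E0 clones of that set include the 3 with a spot at the ceiling, and r without these 3 was not computed there. Over all E0 clones but the saturated ones, the r of 0.733 was 0.678. Between single arrays the dye ratio kept its ranks weakly. The Spearman correlation, averaged over the 28 pairs, was 0.246 in E0, 0.203 in E1 and 0.207 in the other clones. In brightness bins 1 to 5 the median dye effect of E1 was -0.099, 0.059, 0.054, 0.038 and 0.025, and that of E0 was -0.18, -0.007, 0.065, 0.053 and 0.003.

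Between the portions named test and ref, no clone differed past the threshold. For test over ref, the part of the ratio that follows the RNA and not the dye, limma called 0 of the 2147 clones against a background of 0%, with 0.688 as the smallest adjusted p. Unadjusted, 17 E0 clones (4.76%) and 127 E1 clones (7.09%) had p under 0.05, against a background of 7.12%. None of the 20 alternative fits called an E0 or E1 clone for test over ref.

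The 6 clones below were picked by rule among those above the blanks on all 8 arrays and free of saturated spots: per library the strongest dye effect in each direction with one sign on all 8 arrays, and the brightest clone. In E0 no clone that met the rule was called, so the one with the smallest p is given. UI-R-E0-cn-g-11-0-UI, in row 13, had a log2 Cy5/Cy3 of 0.04, 0.09, 0.02 and 0.32 on test_in_Cy5 replicates 1 to 4 and 0.19, 0.15, 0.12 and 0.28 on test_in_Cy3 replicates 1 to 4. Cy5 was higher on all 8 arrays, most on the arrays numbered 4. Its effect was 0.15 ± 0.048 (SE, limma adjusted p = 0.114). Its Cy5 intensity was 5.05 to 12.7 times the blank median.

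UI-R-E0-df-h-02-0-UI, in row 18, had a log2 Cy5/Cy3 of -0.27, -0.28, -0.18 and -0.38 on test_in_Cy5 replicates 1 to 4 and -0.20, -0.01, -0.18 and -0.06 on test_in_Cy3 replicates 1 to 4. The values were below 0 on all 8 arrays and barely so on test_in_Cy3 replicate 2. Its effect of -0.19 ± 0.043 was not called (SE, limma adjusted p = 0.0611). Both E0 clones were called, with the same sign, without background correction, at adjusted p = 0.0103 and 0.014 (limma).

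In E1, UI-R-E1-go-a-03-0-UI, in row 18, was the clone with the smallest p among those with Cy5 higher. Its log2 Cy5/Cy3 was 0.20, 0.13, 0.22 and 0.38 on test_in_Cy5 replicates 1 to 4 and 0.20, 0.43, 0.05 and 0.49 on test_in_Cy3 replicates 1 to 4. The effect was 0.26 ± 0.060 (SE, limma adjusted p = 0.0642). The clone was called in 6 of the 20 alternative fits. Without test_in_Cy3 replicate 3, its lowest array, the effect was 0.30 with an adjusted p of 0.0478 (limma). Without background correction it was 0.19 (limma adjusted p = 0.0129).

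UI-R-E1-fv-b-09-0-UI, in row 7, had the strongest effect with Cy3 higher. Its log2 Cy5/Cy3 was -1.56, -1.47, -0.96 and -1.03 on test_in_Cy5 replicates 1 to 4 and -1.37, -1.31, -1.38 and -0.44 on test_in_Cy3 replicates 1 to 4. All 8 arrays had Cy3 higher, and test_in_Cy3 replicate 4 lay far above the others. The effect was -1.19 ± 0.13 (SE, limma adjusted p = 0.006), which is not called with loess per print block, at -0.97 (limma adjusted p = 0.137). With the authors' values it was -0.094 (limma adjusted p = 0.0226). The clone was close to the scanner ceiling, with a highest spot at 99.3% of it in Cy5 and 68.3% in Cy3.

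UI-R-E1-go-c-11-0-UI, in row 5, was the brightest unsaturated E1 clone and showed much the same pattern. Its log2 Cy5/Cy3 was -1.45, -1.30, -0.96 and -0.89 on test_in_Cy5 replicates 1 to 4 and -1.25, -1.26, -1.40 and -0.24 on test_in_Cy3 replicates 1 to 4. The effect was -1.09 ± 0.14 (SE, limma adjusted p = 0.0117), and with the authors' values it was -0.12 (limma adjusted p = 0.007). The clone was called in 17 of the 20 alternative fits. One fit in which it lost its call was that without test_in_Cy3 replicate 1 (limma adjusted p = 0.0553). Its highest spot stood at 99.5% of the ceiling in Cy5. Its Cy5 intensity was 11.6 to 47.7 times the blank median and never left the top percentile of all clones, with a lowest percentile of 99.6.

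UI-R-E0-bt-a-04-0-UI, in row 19, was the brightest unsaturated E0 clone and stayed further from the ceiling, at most at 94.1% of it in Cy5 and 26.9% in Cy3. Its log2 Cy5/Cy3 was -0.19, -0.18, -0.06 and 0.15 on test_in_Cy5 replicates 1 to 4 and -0.12, 0.02, -0.12 and 0.27 on test_in_Cy3 replicates 1 to 4. The sign varied between arrays, and the effect was -0.027 ± 0.063 (SE, limma adjusted p = 0.824). With the authors' values the clone was called in the other direction, at 0.16 (limma adjusted p = 0.0125). The direction of the authors' values rests on the same inference as above.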

How the data were processed

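The members, lists and rules were chosen with earlier results of these data known. RNA was isolated with TRIzol and labelled indirectly, per the labels, channel 1 being Cy3 and channel 2 Cy5. Per the file headers, the deposited scanner tables hold intensity and local background intensity per spot and channel for 18240 spots; the sources used here do not name the scanner or its software. The authors' deposited value table was read as log2 of test over ref, with method, centring, scale and direction unstated; the direction was inferred from its correlation per array, 0.537 to 0.647, with the ratio used here, and every sign from these values rests on it. It served as an alternative.

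Ratios were corrected with normexp (offset 50) and loess (span 0.3, 4 iterations, control spots at weight 0), and spots were averaged per clone. limma 3.58.1 in R 4.3.3 fitted the dye effect and test over ref on 8 arrays, with 6 residual and 1.84 prior degrees of freedom and Benjamini-Hochberg adjustment over 8778 clones. Scripts were tested on simulated data. Library medians were compared per array with exact two-sided sign-flip tests (scipy 1.17.1, Python 3.11.15). Clones were named by the rule given beside them. Over all clones, the deviations of the dye ratio of same-numbered arrays from their group means correlated at -0.018, 0.162, 0.016 and 0.063. As these were not all above 0.1 and the labels state no batch for the numbers, the numbers were not used as pairs. This check did not cover brightness or the share above the blanks. Cy5 brightness of E0 and of E1 was higher at numbers 1 and 2 in both orientations. With the 4 numbers as units, no sign-flip p could be under 0.125. No clone sequence was used here.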

Additional observations from a re-analysis of the deposited data

Results flagged for a closer look

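Among 32 sets of 4 arrays checked, 3 held 1 array far from the other 3 of its orientation, where chance would mark about 5% of sets. On test_in_Cy3 replicate 3 the share of clones above the blanks was 7.38 percentage points higher in E0 than in E1, against 15.7 to 17.1 points on the other 3 arrays of test_in_Cy3. This was the array with the brightest blanks. On test_in_Cy3 replicate 4 the log2 Cy5/Cy3 of UI-R-E1-fv-b-09-0-UI was -0.44, against -1.38 to -1.31 on the other 3. On the same array that of UI-R-E1-go-c-11-0-UI was -0.24, against -1.40 to -1.25.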

How the results depend on the processing

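Within block rows, against the other clones, brightness turned to E0 below E1, at -0.093 in Cy3 and -0.19 in Cy5. That comparison was not made for the share above the blanks. Under the other alternatives run, brightness and the share stayed higher in E0, past the threshold. With the negative control spots in place of the blanks, the brightness difference between libraries is unchanged, as the reference cancels. For both libraries against the other clones, brightness reversed within block rows (-0.010 in Cy3, -0.041 in Cy5) and the share reversed above the highest blank (-0.28 points). Duplicate spot spread, E0 minus E1, was no longer called without background correction (-0.0013) or in row 18 (-0.0088), and against the other clones it reversed without background correction (0.00080). The dye ratio, E0 minus E1, passed the test with median centring (0.052) and within block rows (-0.027). Against the other clones it lost its call without background correction (0.0033), with plain subtraction (0.0040), loess per print block (0.0083), the authors' values (0.0040), clones above the blanks (0.0071), within block rows (0.0098) and without the arrays numbered 4 (0.0087). In row 18 the rank correlation was 0.869 in Cy3 for E1, and 0.940 in Cy3 and 0.951 in Cy5 for the other clones.

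Dye calls in E0 and E1 numbered 37 and 153 without background correction (8.61% of all clones) and 34 and 123 with plain subtraction (7.44%). They numbered 117 and 491 with median centring (28.9%) and 2 and 4 with loess per print block (0.399%). With the authors' values they numbered 31 and 81 (5.09%), and with ordinary least squares 2 and 4 (0.387% of all clones). Leaving out 1 array gave 2 to 4 E0 and 3 to 41 E1 calls, against 0.353% to 2.6% of all clones. Without the arrays numbered 4 there were 3 and 7 (0.672% of all clones), and without those numbered 3, 4 and 23 (1.31%). Without saturated clones E0 had 3, against 1.87% of all clones in that fit. Over clones above the blanks, fewer clones were tested. There E0 had 10 of 68, 3 of the 10 with a spot at the ceiling, and E1 had 11 of 170. The share over all clones of that fit was 8.95%. With the label number as replicate block E0 had 7 and E1 had 21, against 1.71% of all clones. The causes were not tested. The row comparisons, the negative control spots as reference, the fits without the arrays numbered 3 and the spread with loess per print block were chosen after seeing the data. Signal over background limits the dim clones: by the rule used for the blanks, 63.1% of the 2147 were above them on no array.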
